A study of Mus musculus with 8 samples.

Results

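The synaptic vesicle release machinery was examined gene by gene in mRNA from glutamatergic neurons of the mouse ventral pallidum (VP), a basal forebrain region with a major input from the nucleus accumbens. The genes were chosen by symbol, as the families named Syt, Stx, Stxbp, Vamp, Snap (followed by a number), Cplx, Rims, Unc13, Sv2, Syngr and Syn together with Bsn, Pclo, Syp and Rph3a, and 69 of the 14353 genes with values belonged to them. Expression was above 1 CPM (reads of a gene scaled to the size of the library) in at least 3 libraries for all 69, so that none was lost to the filter on low values.

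The mice were homozygous for vGluT2-Cre, heterozygous for the RiboTag allele of Rpl22, untreated, and of both sexes. VGluT2-Cre is driven from the locus of Slc17a6, the vesicular glutamate transporter gene, so the tagged ribosomal protein is made in cells that express the transporter or did so earlier in life. Tissue of 7 to 11 mice was pooled for each of 4 independent pools, called VP1.6 (mice of 9 to 12 weeks of age) and VP2.2, VP2.6, VP2.11 (mice of 10 to 16 weeks), which held 38 mice in all. Each pool gave 1 library of mRNA pulled down with the tagged ribosomes (TRAP) and 1 library labelled Input (INPUT), which by the protocol is lysate set aside before the pull-down and holds RNA of neurons and glia alike (n = 4 libraries per fraction). The methods mention an unbound fraction where the labels say Input, and libraries from mice without Cre were not analysed here. The values were log2 CPM, and no read counts per library were used, so the depth behind each value is unknown.

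Neurotransmitter release joins vesicle to plasma membrane through SNARE proteins. Synaptobrevin (Vamp) on the vesicle zips together with syntaxin (Stx) and SNAP-25 on the plasma membrane, synaptotagmins (Syt) sense the calcium that triggers fusion, and Munc18 (Stxbp), Munc13 (Unc13) and complexins (Cplx) prepare and clamp the assembling complex. The active zone scaffold of RIM (Rims), bassoon (Bsn) and piccolo (Pclo) proteins holds vesicles and calcium channels together, whereas SV2, synaptophysin (Syp), synaptogyrins (Syngr) and synapsins (Syn) belong to the vesicle itself. Other SNAREs of the same families serve traffic within the cell or secretion from cells that are not neurons.

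The labelled cell type was checked first. Slc17a6 was at 143 ± 13.6 CPM in TRAP against 25.9 ± 10.3 CPM in INPUT (mean ± SD, n = 4 each), and Slc32a1, the vesicular GABA transporter gene, was 10.9 ± 3.71 and 25.6 ± 6.22 CPM. The GABA synthesis gene Gad1 did not separate the fractions (log2 fold change 0.30, adjusted p = 0.47). Snap25 and Syt1, the markers of release-competent neurons in the set, were expressed in every library. In pool VP2.2 the INPUT library had the lowest sum of the 3 GABA neuron markers, 584 CPM against 1214 to 1394 CPM in the other INPUT libraries, and the TRAP library of that pool had the highest TRAP sum, 1573 CPM against 918 to 1071 CPM. The counts of release genes are therefore also given without that pool.

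Of the 69 release genes, 25 were higher and 7 were lower in TRAP than in INPUT at an adjusted p under 0.05 (limma with the pool as a block, Benjamini-Hochberg over all genes tested), which was 46.4% of the set. Over all 14249 genes tested, 32.2% passed, 15.4% higher and 16.8% lower. The median log2 fold change was 0.30 over the release genes and -0.05 over all genes. Since these are bulk samples, fewer cells of a type and less RNA per cell cannot be told apart in any of these differences. Without the pool as a block, 31 release genes were higher and 9 lower, against 23.2% and 24.8% (47.9% together) of all genes, and the 32 genes called with the block were among those 40. With array weights and the block, 29 were higher and 11 lower, against 19.8% and 22.4% of all genes, and with array weights and no block, 35 and 14, against 28.5% and 32.1% (60.7% together). With eBayes without a trend, 18 were higher and 5 lower, against 10.4% and 12.8%. Both libraries of a pool deviated from their fraction means in opposite directions, and whether the values were adjusted per pool before deposit is not given in the sources used here, so counts with and without the block and differences per pool hold for the values as deposited. The mean was higher in TRAP for 48 of the 69 genes, against 47.6% of all genes. TRAP libraries lay entirely above INPUT libraries for 31 release genes and entirely below for 8, against 23.3% and 24.4% of all genes. TRAP was above INPUT in all 4 pools for the same 31 genes and below for the same 8, against 23.3% and 24.5%. Libraries that do not overlap, here and below, therefore add little to a common direction over the pools. Without pool VP2.2 the numbers were 23 higher and 9 lower, against 14.9% and 14.3% of all genes. In the plot of log2 fold changes by role, the means of 21 genes lie to the left of 0, and 5 of the 7 genes called lower are SNAREs that are not part of the synaptic release complex.

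**Figure D1:**
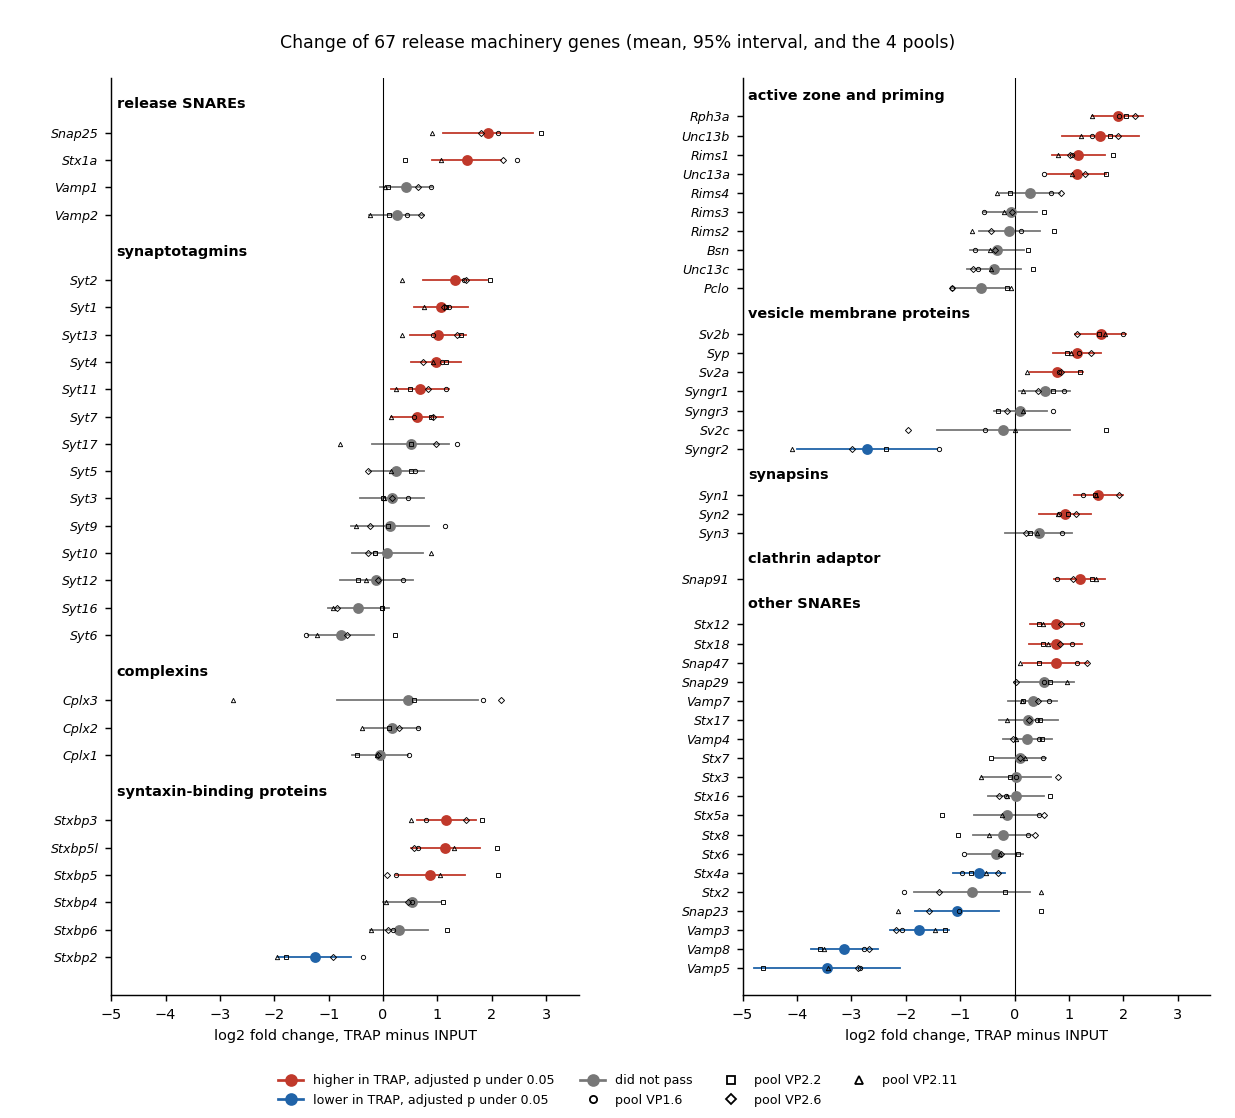
Log2 fold change of TRAP over INPUT (x axis) of 67 of the 69 release genes (y axis), grouped by role, with the 95% interval from limma as a line and the 4 pools as small open symbols. Red, blue and grey mark genes higher, lower and not past an adjusted p of 0.05; the means run from -3.44 for Vamp5 to 1.93 for Snap25.

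Among the SNAREs of the release complex, Snap25 and Stx1a rose, whereas neither synaptobrevin passed the test. Snap25 encodes the palmitoylated plasma membrane SNARE of the complex (chromosome 2 of GRCm38, 136713453 to 136782428). TRAP libraries, listed here and below in the order VP1.6, VP2.2, VP2.6, VP2.11, held Snap25 at 21756, 19691, 18717 and 14263 CPM, and INPUT libraries at 5043, 2621, 5390 and 7643 CPM in the same order. The lowest TRAP library was thus above the highest INPUT library. The log2 fold change was 1.93 (95% interval 1.10 to 2.76, adjusted p = 0.0020), the largest of the set, and ranged from 0.90 in VP2.11 to 2.91 in VP2.2. Per kilobase of exon, Snap25 was the most abundant release gene in TRAP at 2740 ± 465 CPM per kb (SD, n = 4), above Snap47 at 660.0 ± 149 and Cplx1 at 271 ± 35.6 CPM per kb. Further down, Vamp2 (144 ± 21.1 CPM per kb) and Stx1a (127 ± 44.5 CPM per kb) did not differ beyond their spread.

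Stx1a, a plasma membrane syntaxin of neurons (chromosome 5, 135023482 to 135051100), was 469, 202, 400 and 286 CPM in TRAP and 85.0, 152, 86.9 and 136 CPM in INPUT. Its libraries did not overlap, but pool VP2.2 gave a log2 difference of 0.41 against 1.07 to 2.46 in the other pools. The log2 fold change was 1.54 (95% interval 0.90 to 2.17, adjusted p = 0.0016).

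Vamp2, the main synaptobrevin of forebrain synapses (chromosome 11, 69088490 to 69092384), was 589, 512, 636 and 455 CPM in TRAP and 437, 477, 393 and 537 CPM in INPUT. Vamp1, its paralog, was 188, 139, 170 and 137 CPM in TRAP and 102, 130, 108 and 134 CPM in INPUT. The fractions overlapped for Vamp2, and for Vamp1 they were separated by a narrow margin. The log2 fold changes were 0.25 (95% interval -0.26 to 0.75, adjusted p = 0.45) and 0.41 (95% interval -0.06 to 0.89, adjusted p = 0.17), and without the block Vamp1 had an adjusted p of 0.044. The interval of Vamp2 did not reach the log2 fold change of Snap25, but the difference between these 2 genes was not tested.

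**Figure D2:**
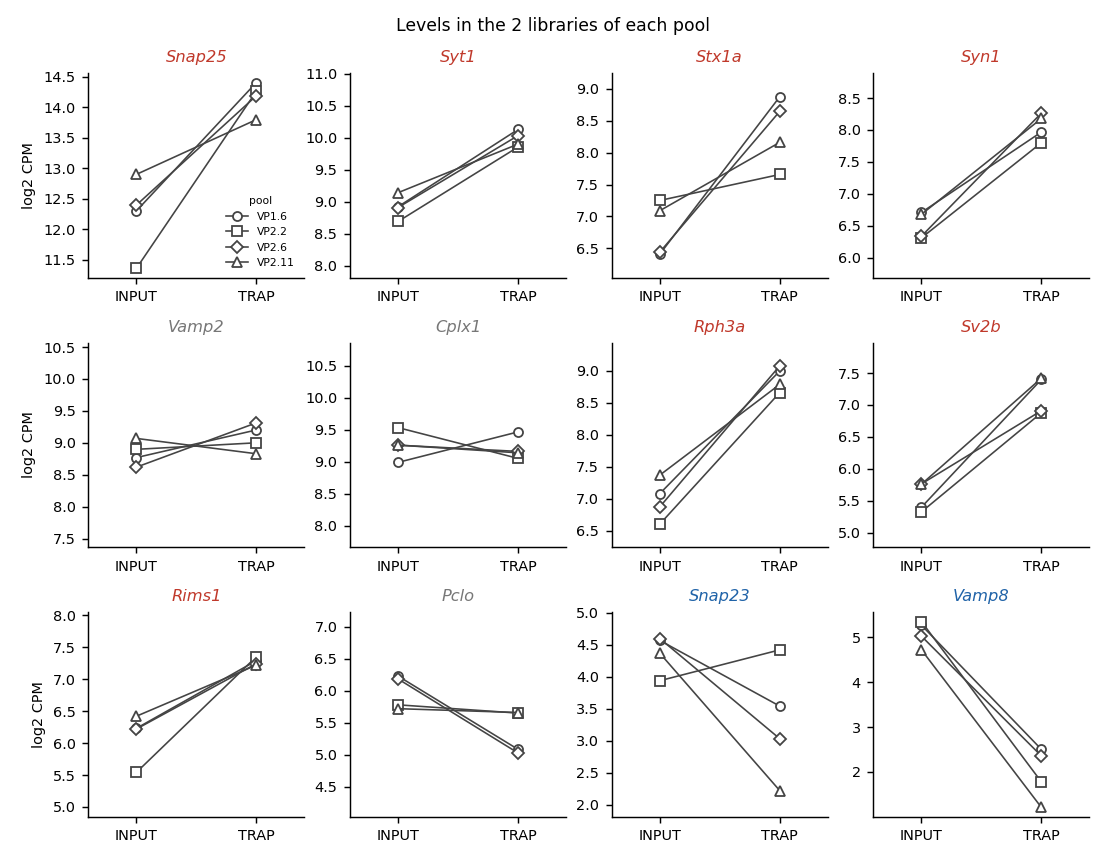
Level in log2 CPM (y axis, with its own range in each panel) of 12 release genes in the INPUT and TRAP library of each pool, 1 line and symbol per pool, with titles in red, blue or grey for genes higher, lower or not past the threshold. Snap25 and Syt1 run upward from INPUT to TRAP in all 4 pools and Vamp8 downward in all 4, whereas the lines of Vamp2 and Cplx1 cross.

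Of 14 synaptotagmins, 6 rose (Syt1, Syt2, Syt4, Syt7, Syt11, Syt13) and none fell, against 15.4% and 16.8% of all genes. Syt1, the fast calcium sensor of most forebrain synapses (chromosome 10, 108497650 to 109010982), was 1120, 926, 1048 and 955 CPM in TRAP and 484, 413, 480 and 564 CPM in INPUT. Every pool showed a log2 difference between 0.76 and 1.21, and the log2 fold change was 1.06 (95% interval 0.58 to 1.55, adjusted p = 0.0031). Syt2, a related fast sensor best known from hindbrain and motor synapses, was 46.7, 47.8, 49.1 and 35.3 CPM in TRAP and 16.7, 12.2, 17.2 and 27.7 CPM in INPUT. Syt4, a synaptotagmin with altered calcium binding, was 535, 466, 459 and 512 CPM in TRAP and 252, 209, 277 and 272 CPM in INPUT. Syt2 and Syt4 had log2 fold changes of 1.33 (adjusted p = 0.0024) and 0.97 (adjusted p = 0.0037), and in both genes the libraries of the fractions did not overlap.

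The remaining synaptotagmins that rose were Syt13, Syt11 and Syt7. Syt13 changed by 1.01 on the log2 scale (adjusted p = 0.0058). Syt11, a synaptotagmin that does not bind calcium, reached 1142 ± 190 CPM in TRAP and 709 ± 89.8 CPM in INPUT (SD, n = 4), and its log2 fold change of 0.68 passed at an adjusted p of 0.048. Syt7, a slow and high-affinity calcium sensor, had 60.3 ± 6.50 and 39.3 ± 6.17 CPM (SD, n = 4), a log2 fold change of 0.62 and an adjusted p of 0.048. With 1 pool left out the adjusted p of Syt11 was 0.27 (without VP1.6), 0.19 (without VP2.6) and 0.057 (without VP2.11), and that of Syt7 was 0.13 (without VP1.6), 0.077 (without VP2.2) and 0.23 (without VP2.6). The other 8 synaptotagmins ran from -0.77 (Syt6, adjusted p = 0.052) to 0.51 (Syt17, adjusted p = 0.26) on the log2 scale. Syt6 was 14.9, 27.8, 19.4 and 12.6 CPM in TRAP and 39.7, 23.8, 30.7 and 29.4 CPM in INPUT, lower in TRAP in all pools except VP2.2. Without VP2.2, Syt6 passed (-1.10 on the log2 scale, adjusted p = 0.0072), and without VP2.11 so did Syt17 (0.95, adjusted p = 0.030).

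Complexins are small proteins that bind assembled SNAREs. None of 3 passed the test, against 32.2% of all genes. Cplx1 was 708, 531, 573 and 564 CPM in TRAP and 508, 741, 613 and 613 CPM in INPUT. Cplx2 was 733, 590, 640 and 495 CPM in TRAP and 468, 550, 519 and 648 CPM in INPUT. For both genes the fractions overlapped and 1 pool or more went the other way, with log2 fold changes of -0.06 (95% interval -0.56 to 0.45, adjusted p = 0.88) and 0.17 (95% interval -0.35 to 0.68, adjusted p = 0.63). Cplx1 changed sign between alternatives, with 0.06 under array weights. Cplx3, a complexin of retinal and subplate neurons, was low and variable, from 1.41 to 14.6 CPM in TRAP. Its log2 fold change was 0.45 (95% interval -0.85 to 1.75, adjusted p = 0.60). Cplx3 passed with array weights and the block (1.21 on the log2 scale, adjusted p = 0.048). It also passed without VP2.11 (1.52 on the log2 scale, adjusted p = 0.012) and was -0.12 without VP2.6.

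Among the syntaxin-binding proteins, Stxbp3, Stxbp5 and Stxbp5l rose and Stxbp2 fell. Stxbp3 (Munc18-3), known from syntaxin-4 dependent exocytosis, changed by 1.16 on the log2 scale (adjusted p = 0.0034). Stxbp2 (Munc18-2), known from secretion in blood and epithelial cells, fell from 19.7 ± 4.15 CPM in INPUT to 8.76 ± 3.72 CPM in TRAP (SD, n = 4), a log2 fold change of -1.26 (adjusted p = 0.0073).

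The tomosyn genes Stxbp5 and Stxbp5l encode syntaxin-binding inhibitors of priming. Stxbp5 was 64.9, 100, 61.6 and 97.7 CPM in TRAP and 55.3, 23.1, 58.3 and 47.2 CPM in INPUT. Stxbp5l was 20.6, 29.4, 20.8 and 34.3 CPM in TRAP and 13.3, 6.90, 14.1 and 13.9 CPM in INPUT. In both genes VP2.2 and VP2.11 showed larger differences than VP1.6 and VP2.6. Their log2 fold changes were 0.87 (adjusted p = 0.037) and 1.15 (adjusted p = 0.0087), and Stxbp5 was 0.45 without VP2.2 (adjusted p = 0.15) and 0.81 without VP2.11 (adjusted p = 0.11).

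Active zone genes were divided. RIM1, both Munc13 genes of forebrain release and rabphilin rose (4 of 10), and none of the 10 passed in the other direction. Over all genes 15.4% rose and 16.8% fell. Rph3a encodes rabphilin, a Rab3 effector that also binds SNAP-25 (chromosome 5, 120940499 to 121010092). It was 512, 405, 542 and 443 CPM in TRAP and 135, 97.2, 117 and 165 CPM in INPUT. All pools showed a log2 difference of at least 1.42, and the log2 fold change of 1.90 (95% interval 1.43 to 2.37) had the smallest adjusted p among the genes that rose, 3.9e-05.

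Rims1, which encodes the scaffold RIM1, was 156, 163, 151 and 149 CPM in TRAP and 75.1, 46.6, 74.5 and 85.6 CPM in INPUT. Rims2, its closest paralog, was 45.9, 53.8, 37.2 and 29.4 CPM in TRAP and 42.2, 32.7, 50.2 and 50.9 CPM in INPUT. The libraries were clearly separated for Rims1 and overlapped for Rims2. The log2 fold change was 1.17 for Rims1 (adjusted p = 0.0015) and -0.10 for Rims2 (95% interval -0.65 to 0.46, adjusted p = 0.81).

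Unc13a (Munc13-1), the main priming factor of glutamatergic synapses (chromosome 8, 71624417 to 71671757), was 37.8, 48.4, 49.9 and 53.8 CPM in TRAP and 25.8, 15.0, 20.3 and 25.8 CPM in INPUT. Unc13b (Munc13-2) was 9.07, 10.0, 11.7 and 12.4 CPM in TRAP and 3.39, 2.95, 3.12 and 5.28 CPM in INPUT. Every TRAP library was above every INPUT library in both genes, with log2 fold changes of 1.15 (adjusted p = 0.0031) and 1.58 (adjusted p = 0.0025). Unc13c (Munc13-3), best known from cerebellar granule cells, was lower in TRAP in all pools except VP2.2 with -0.38 on the log2 scale (adjusted p = 0.23), and without VP2.2 it passed (-0.63, adjusted p = 0.022).

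Bsn, the gene of the large scaffold bassoon, was 32.4, 45.4, 36.8 and 33.1 CPM in TRAP and 53.4, 38.1, 47 and 45.3 CPM in INPUT. Pclo, the gene of the related scaffold piccolo, was 33.9, 50.2, 32.6 and 50.6 CPM in TRAP and 75.1, 55.0, 72.8 and 52.7 CPM in INPUT. TRAP libraries of Pclo were all below the INPUT libraries, by a narrow margin in VP2.2 and VP2.11, and those of Bsn overlapped. The log2 fold changes were -0.32 (adjusted p = 0.32) for Bsn and -0.62 for Pclo (adjusted p = 0.071 with the block and 0.024 without it). Pclo passed without VP2.2 (-0.79, adjusted p = 0.032) and without VP2.11 (-0.81, adjusted p = 0.049).

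Of 7 vesicle membrane proteins, Sv2a, Sv2b and Syp rose and Syngr2 fell, against 15.4% and 16.8% of all genes. Sv2b, a member of the SV2 glycoproteins (chromosome 7, 75114894 to 75309262), was 169, 118, 120 and 171 CPM in TRAP and 42.2, 40.1, 54.4 and 54.2 CPM in INPUT. Its log2 fold change was 1.59 (95% interval 1.12 to 2.06, adjusted p = 1.7e-04). Sv2a, the binding site of the antiepileptic drug levetiracetam, was 409, 398, 406 and 331 CPM in TRAP and 231, 173, 224 and 282 CPM in INPUT. The margin for Sv2a was small in VP2.11, and its log2 fold change of 0.78 (adjusted p = 0.017) had an adjusted p of 0.078 without VP1.6 and 0.082 without VP2.6. Sv2c, the SV2 form best known from the basal ganglia, was 2.05, 5.22, 0.942 and 2.58 CPM in TRAP and 2.99, 1.64, 3.65 and 2.57 CPM in INPUT, with no common direction over the pools. Syp (synaptophysin) rose from 110 ± 9.21 to 243 ± 26.8 CPM (SD, n = 4), a log2 fold change of 1.15 (adjusted p = 0.0010).

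The neuronal synaptogyrins did not pass the test. Syngr1 was 159, 134, 132 and 122 CPM in TRAP and 84.4, 82.1, 98.3 and 109 CPM in INPUT. Syngr3 was 184, 132, 136 and 152 CPM in TRAP and 113, 163, 148 and 137 CPM in INPUT. Libraries of Syngr1 did not overlap and those of Syngr3 did, and the log2 fold changes were 0.55 (adjusted p = 0.063, or 0.0084 without the block) and 0.11 (adjusted p = 0.75). Syngr2, the synaptogyrin of cells that are not neurons, was 1.47, 0.822, 0.517 and 0.261 CPM in TRAP and 3.86, 4.25, 4.12 and 4.44 CPM in INPUT. It was lower in every TRAP library, with a log2 fold change of -2.71 (95% interval -3.99 to -1.43, adjusted p = 0.0036).

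Both main synapsins, which tether vesicles in the reserve pool, rose. Syn1 (chromosome X, 20860511 to 20921004) was 250, 223, 308 and 290 CPM in TRAP and 105, 79.4, 80.9 and 103 CPM in INPUT. Syn2 was 781, 720, 848 and 787 CPM in TRAP and 443, 363, 389 and 452 CPM in INPUT. Neither gene showed overlap between the fractions, and the log2 fold changes were 1.54 (adjusted p = 1.6e-04) and 0.93 (adjusted p = 0.0056). Syn3 did not pass (0.44 on the log2 scale, adjusted p = 0.26). Snap91 (AP180), a clathrin adaptor that shares only its symbol prefix with the SNAREs, had 403 ± 58.2 CPM in TRAP and 176 ± 28.9 CPM in INPUT (SD, n = 4), which was 1.20 on the log2 scale (adjusted p = 0.0011).

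The SNAREs outside the release complex gave 5 of the 7 genes that fell. Of this group of 19, 5 fell and 3 rose, against 16.8% lower and 15.4% higher over all genes. Without the block 5 fell and 5 rose, against 24.8% and 23.2% of all genes. The largest decreases were in Vamp5 and Vamp8, neighbours on chromosome 6 of GRCm38 (72368794 to 72380468 and 72385223 to 72390703). Vamp8 (endobrevin), the vesicular SNARE of secretion in many cells that are not neurons, was 5.67, 3.43, 5.12 and 2.31 CPM in TRAP and 38.6, 40.8, 32.5 and 26.4 CPM in INPUT. Vamp5 (myobrevin), known from muscle, was 0.620, 0.221, 0.531 and 0.330 CPM in TRAP and 4.44, 5.46, 3.91 and 3.56 CPM in INPUT. TRAP lay far below INPUT in every pool for both genes. The log2 fold changes were -3.13 (95% interval -3.75 to -2.51, adjusted p = 5.3e-06) for Vamp8 and -3.44 (95% interval -4.79 to -2.10, adjusted p = 0.0011) for Vamp5. The TRAP values of Vamp5 and Syngr2 are at the low end of the table, where few reads stand behind a value.

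Vamp3 (cellubrevin), a SNARE of recycling endosomes found in glia and most other cells, was 13.6 ± 3.38 CPM in TRAP and 45.4 ± 7.91 CPM in INPUT (SD, n = 4), which was -1.75 on the log2 scale (adjusted p = 2.2e-04). Snap23, the SNAP-25 paralog of most other cells, was 11.6, 21.4, 8.18 and 4.66 CPM in TRAP and 23.8, 15.3, 24.2 and 20.7 CPM in INPUT. Snap23 was lower in TRAP in 3 of 4 pools and higher in VP2.2. Its log2 fold change of -1.07 (adjusted p = 0.035) became -1.58 without VP2.2 (adjusted p = 0.0032) and -0.70 without VP2.11 (adjusted p = 0.17), and its adjusted p was 0.077 without VP1.6 and 0.12 without VP2.6. Stx4a, a plasma membrane syntaxin of general secretion, changed by -0.65 on the log2 scale (adjusted p = 0.040), and leaving out any 1 pool took its adjusted p to between 0.058 and 0.20.

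The 3 SNAREs of this group that rose were Snap47, Stx12 and Stx18. Snap47, a SNAP-25 family member without the palmitoylation site, had 1750 ± 394 CPM in TRAP and 1030 ± 184 CPM in INPUT (SD, n = 4), or 0.75 on the log2 scale (adjusted p = 0.049). Stx12, an endosomal syntaxin, had 363 ± 55.8 and 212 ± 22.2 CPM, or 0.77 on the log2 scale (adjusted p = 0.017). Stx18, a syntaxin of the endoplasmic reticulum, had 41.6 ± 3.83 and 24.7 ± 2.73 CPM, or 0.76 on the log2 scale (adjusted p = 0.021). All 3 had adjusted p values above the threshold without VP1.6 (0.23, 0.14 and 0.13) and without VP2.6 (0.28, 0.085 and 0.10). Snap47 and Stx18 share over 10% of their exon length with a gene on the other strand, as do Syp, Syt4, Syt12 and Syn3, so their values are uncertain to that extent. The use of strand in the counting is not given in the sources used here. The endosomal and Golgi SNAREs Stx6, Stx7, Stx8, Stx16, Vamp4 and Vamp7 did not pass the test, with log2 fold changes from -0.34 to 0.34.

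Most markers of astrocytes, oligodendrocytes and microglia were also lower in TRAP. Among astrocyte markers (Gfap, Aqp4, Aldh1l1, Gja1, Slc1a3), 4 of 5 fell and the summed level was 150 to 253 CPM in TRAP and 343 to 502 CPM in INPUT. Among oligodendrocyte markers (Sox10, Mbp, Mog, Mag), 3 of 4 fell, with sums of 385 to 565 and 1595 to 2634 CPM, while Mag was 0.61 on the log2 scale (adjusted p = 0.072 with the block and 0.035 without it). Among microglia markers (Cx3cr1, C1qa, C1qb, P2ry12, Csf1r), 3 of 5 fell, with sums of 23.7 to 31.8 and 78.8 to 126 CPM. Of the endothelial markers with values (Pecam1, Flt1, Ly6c1), Flt1 rose and none fell, while the sums spanned 6.45 to 50.3 CPM in TRAP and 3.51 to 41.7 CPM in INPUT. The lowest TRAP value among these markers was 0.723 CPM (C1qa), and values taken from log2 CPM cannot be 0. The part of these cell types in the lower levels of Vamp3, Vamp5, Vamp8, Snap23, Syngr2, Stxbp2 and Stx4a was not tested. Striatal projection neuron markers (Ppp1r1b, Drd1, Drd2, Adora2a, Rgs9) also fell in 4 of 5 cases, with sums of 229 to 305 and 444 to 611 CPM, and their part in the values was not tested either. Of 3 cholinergic neuron markers (Chat, Slc5a7, Slc18a3), 1 fell and none rose, while 2 of the 3 means were higher in TRAP. Their sums were 87.8 to 137 CPM in TRAP and 39.4 to 84.1 CPM in INPUT, and their part was likewise not tested.

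The makeup of each family was then expressed per kilobase of exon, as the share of a gene in the summed CPM per kb of its family. Snap25 made up 80.4% ± 2.55 of the SNAP-25 family in TRAP and 64.0% ± 10.7 in INPUT (SD, n = 4), with Snap47 at 19.3% and 35.2%. In INPUT of VP2.2 the share of Snap25 was 48.1%, below the 67.3% to 70.7% of the other INPUT libraries. Stx1a was 28.7% ± 5.16 of the 13 syntaxins in TRAP and 15.1% ± 2.64 in INPUT. Among 7 Vamp genes, Vamp2 held 54.3% and 49.4%, while Vamp3 and Vamp8 together with Vamp5 were minor in TRAP (1.81%, 0.662% and 0.0582%) and larger in INPUT (6.50%, 6.16% and 0.659%).

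Shares of the calcium sensors and scaffolds were laid out in the same way. Syt11 was 40.5% of the 14 synaptotagmins in TRAP and 43.4% in INPUT, Syt4 was 23.6% and 20.7%, and Syt1 was 22.6% ± 0.536 and 18.5% ± 1.05 (SD, n = 4), while Syt2 was 1.09% and 0.756%. Rims1 was 49.5% ± 2.43 of the RIM genes in TRAP and 30.9% ± 3.55 in INPUT, and Rims3 was 24.4% and 35.8%. Among the 3 Munc13 genes measured, Unc13c held the most in both fractions (66.3% to 74.7% over TRAP libraries and 84.9% to 89.5% over INPUT libraries), Unc13a held 26.6% ± 3.77 in TRAP and 11.5% ± 1.71 in INPUT, and Unc13b held 3.38% and 1.10%. The complexin shares were 68.1% and 71.4% for Cplx1 and 31.2% and 28.1% for Cplx2. Shares within a family sum to a whole, so these are descriptions and were not tested.

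**Figure D3:**
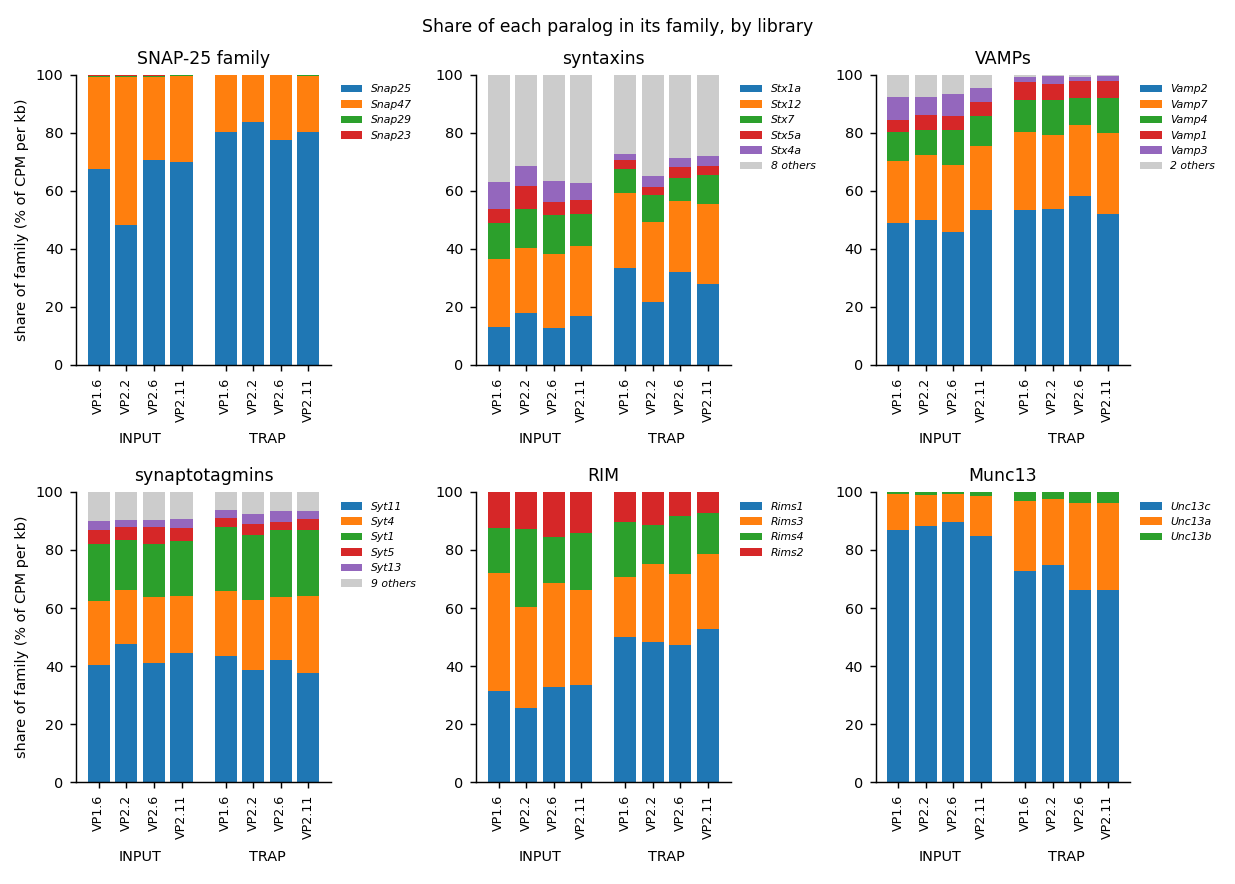
Share of each gene in the summed CPM per kb of its family (y axis, %), as 1 stacked bar per library, for 6 families, with up to 5 genes named per family and the others in grey. Snap25 holds 77.4% to 83.6% of its family in TRAP libraries and 48.1% to 70.7% in INPUT libraries, the lowest in VP2.2.

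Paralog pairs with related jobs were compared through their log2 ratio within each library, which does not depend on the scaling of the library. In 6 of 14 pairs the ratios of TRAP and INPUT libraries did not overlap (p = 0.0286 in a two-sided exact permutation test, which cannot go lower with 4 libraries against 4). The exact permutation p of these 6 was 0.067 after adjustment over the 14 pairs, and 0 of 14 passed 0.05. For single genes, TRAP libraries lay entirely above INPUT libraries in 23.3% of all genes and entirely below in 24.4%. No such share was taken over other gene pairs, so 6 of 14 cannot be read as a trait of these paralogs. Snap25 over Snap23 shifted most, from a mean log2 ratio of 7.87 ± 0.47 in INPUT to 10.86 ± 0.74 in TRAP (SD, n = 4), with shifts in the 4 pools from 2.43 to 3.36. Rims1 over Rims2 shifted from 0.66 ± 0.15 to 1.93 ± 0.32, and Syn1 over Syn2 from -2.17 ± 0.08 to -1.56 ± 0.13. Syngr1 over Syngr3 shifted by 0.45, with pools from 0.01 to 1.01.

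In the other direction, Sv2a over Sv2b shifted by -0.81 (pools from -1.43 to -0.29) and Unc13a over Unc13b by -0.43 (pools from -0.87 to -0.07). In both cases the shift was toward the paralog that was less abundant per kb and had the longer exons. Exon lengths were 8.38 kb for Sv2b against 4.64 kb for Sv2a, and 22.7 kb for Unc13b against 12.6 kb for Unc13a. Longer transcripts were higher in TRAP across all genes (below), and the part of length in these shifts was not tested. The calcium sensor pairs Syt1 over Syt2 (shift -0.26, exact permutation p = 0.20) and Syt1 over Syt4 (shift 0.10, exact permutation p = 0.31) overlapped between the fractions. Overlap was also seen for Vamp2 over Vamp1, Cplx2 over Cplx1, Sv2a over Sv2c, Stxbp5 over Stxbp5l and Bsn over Pclo, where the exact permutation p ran from 0.086 to 0.17.

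**Figure D4:**
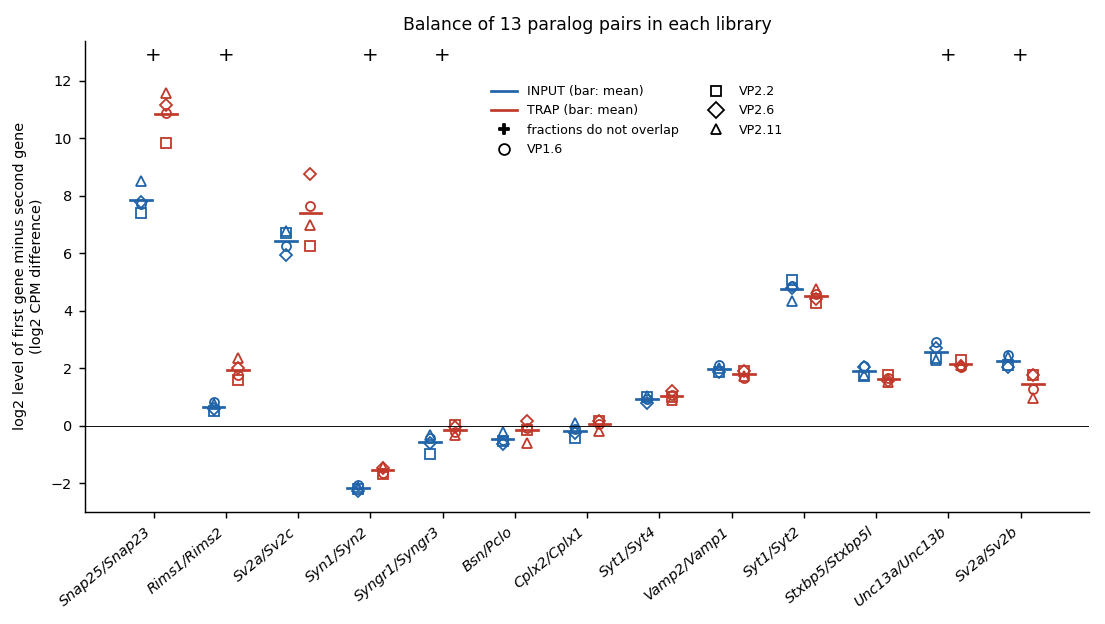
Log2 CPM of the first minus the second gene (y axis) of 13 of the 14 paralog pairs (x axis) in each library, with INPUT in blue, TRAP in red, 1 symbol shape per pool and a bar at each mean. A plus sign marks the 6 pairs whose fractions do not overlap, of which Snap25 over Snap23 shifts most.

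Longer transcripts were higher in TRAP across the whole table, with a Spearman's rho of 0.41 between log2 fold change and exon length over all genes and 0.19 over the 69 release genes (genes are not independent replicates, and share the same 8 libraries). The median exon length was 5.00 kb in the set and 4.27 kb over all genes. The trend of log2 CPM on exon length was then taken out of each library. With it out, 19 release genes were higher and 13 lower, in place of 25 and 7, against 12.2% and 19.8% of all genes. The median log2 fold change of all genes moved by -0.10, from -0.05 to -0.15. The values were not recentred, so this shift is part of these counts. The 6 genes no longer called higher were Syt7, Syt11, Stxbp5, Stxbp5l, Unc13a and Unc13b, and Stx4a was no longer called lower. The 7 genes newly called lower were Bsn, Pclo, Rims2, Unc13c, Stx6, Syt6 and Syt16. Pclo and Bsn, with exon lengths of 22.5 and 15.9 kb, had log2 fold changes of -1.43 (adjusted p = 6.8e-04) and -1.02 (adjusted p = 0.0030) in that fit. Snap25, Stx1a, Syt1, Rims1, Rph3a, Syn1, Syn2, Syp and all 3 Vamp genes lower in TRAP stayed past the threshold in the same direction.

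**Figure D5:**
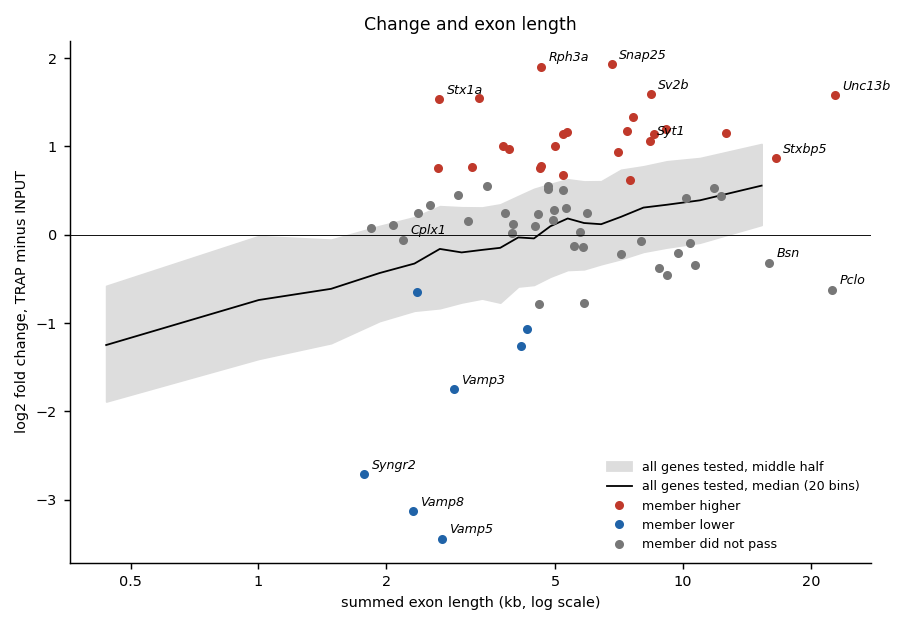
Log2 fold change of TRAP over INPUT (y axis) against summed exon length (x axis, kb, log scale), with the 69 release genes as points in red (higher), blue (lower) or grey (did not pass) and the median and middle range of all genes tested in 20 bins of length as a line and band. The median of all genes runs from -1.25 in the shortest bin to 0.56 in the longest, and Bsn and Pclo lie below 0 at long lengths.

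Other genes of the release pathway, taken from a list of 29 symbols outside these families, showed 12 higher and 4 lower, against 15.4% and 16.8% of all genes. Nsf, the ATPase that takes spent SNARE complexes apart, was 4470, 2615, 3928 and 3327 CPM in TRAP and 1024, 1175, 1050 and 1351 CPM in INPUT, or 1.62 on the log2 scale (adjusted p = 7.4e-04). Erc1, an active zone scaffold that binds RIM, rose by 1.58 on the log2 scale (adjusted p = 2.1e-04). The genes that fell were Sypl (-1.30, adjusted p = 0.0013), a synaptophysin-like protein of many tissues, Doc2b (-1.07), Synpr (-0.80) and Rab27b (-0.67). Without VP2.6 the adjusted p was 0.23 for Doc2b, 0.063 for Synpr and 0.22 for Rab27b, and Doc2b and Rab27b also did not pass without VP1.6 (0.091 and 0.13) or without VP2.11 (0.059 and 0.085). Of 28 genes of vesicle endocytosis, the step that follows release, 11 rose and 1, Sh3gl3, fell (-1.27, adjusted p = 0.0014), against the same 15.4% and 16.8%. Synj1 (1.53), Pacsin1 (1.52) and Dnajc6 (1.47), which encode synaptojanin, syndapin and auxilin, rose the most of these.

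The DNA just upstream of a RefSeq start of transcription is shown for Rph3a and Sv2b, which had the largest log2 fold changes after Snap25 (for which no window was at hand), and for the neighbours Vamp5 and Vamp8, which fell most. The windows are the 250 bases before the RefSeq start nearest to the annotated gene start, on GRCm38.p6, 5′ to 3′ on the gene's strand, and capitals mark a GC box (GGGCGG or its complement CCGCCC). Rph3a: chr5:121010093-121010342 (minus strand), Sv2b: chr7:75309263-75309512 (minus), Vamp5: chr6:72380469-72380718 (minus), Vamp8: chr6:72390668-72390917 (minus).
Rph3a: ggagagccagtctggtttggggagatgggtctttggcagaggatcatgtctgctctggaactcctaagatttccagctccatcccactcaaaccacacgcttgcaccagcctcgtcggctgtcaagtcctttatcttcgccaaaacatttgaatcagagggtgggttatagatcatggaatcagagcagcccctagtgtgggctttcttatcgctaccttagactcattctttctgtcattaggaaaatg
Sv2b: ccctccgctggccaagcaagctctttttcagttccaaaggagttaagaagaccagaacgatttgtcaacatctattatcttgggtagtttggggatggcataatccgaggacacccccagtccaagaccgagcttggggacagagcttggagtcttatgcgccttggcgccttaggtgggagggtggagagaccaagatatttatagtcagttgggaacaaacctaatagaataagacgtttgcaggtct
Vamp5: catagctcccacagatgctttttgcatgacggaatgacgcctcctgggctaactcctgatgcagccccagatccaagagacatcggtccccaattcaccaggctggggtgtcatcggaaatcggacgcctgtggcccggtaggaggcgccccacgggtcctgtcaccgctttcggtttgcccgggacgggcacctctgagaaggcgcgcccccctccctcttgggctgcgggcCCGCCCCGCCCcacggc
Vamp8: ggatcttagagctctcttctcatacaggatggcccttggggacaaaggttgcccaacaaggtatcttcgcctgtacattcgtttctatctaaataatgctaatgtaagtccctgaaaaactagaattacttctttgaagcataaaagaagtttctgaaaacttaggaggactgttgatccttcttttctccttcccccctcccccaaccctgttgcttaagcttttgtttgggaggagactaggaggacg

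The window of Vamp5 held 2 overlapping GC boxes, and those of the other 3 genes held none. Windows on chromosome 18, where Syt4 lies, were left out, and 53 of the 69 release genes had a window among the rest. GC boxes were found on either strand in 37 of these 53 (69.8%), against 32.7% of 32851 windows of the same length. The 32851 windows were those of every start in the RefSeq table outside chromosome 18. They were not limited to 1 start per gene or to genes expressed here, unlike the 53. By call, 17 of 20 genes higher in TRAP (85.0%), 3 of 6 lower (50.0%) and 17 of 27 not called (63.0%) held one. The RefSeq start lay over 1 kb from the annotated gene start for 4 genes (Cplx2, 68793 bases; Stx4a, 17514 bases; Syt11, 2565 bases; Snap47, 1152 bases), and without these the numbers were 15 of 18, 2 of 5 and 17 of 26. The median number of CpG dinucleotides was 16 in the release genes and 6 over all windows. The full palindromic cyclic AMP response element was found in 2 of 53 windows and 1.55% of all windows, and the core of the RE1 element in 0 of 53 and 0.0335%. These matches describe letters in a window and do not identify a site in use.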

How the data were processed

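RNA-seq was available for 4 pools of mouse VP tissue, each with a TRAP and an INPUT library. The authors aligned reads to the Ensembl mouse genome (GRCm38) with STAR 2.5.1a, counted unique reads per gene, scaled libraries by TMM and deposited log2 CPM values. The deposited table also held the fold changes and p-values of the authors' own comparison, which were not used. The values of 3 libraries are rounded to 3 significant digits, so that levels at or above 10 on the log2 scale are known to 1 decimal there. Of 14398 entries, 45 repeats with identical values were left out. Read depth is unknown. Exact repeats of the TRAP minus INPUT difference were found for 1594 genes in VP2.2 and 2405 in VP2.6, whose libraries are unrounded. Between unrounded libraries of different pools they were found for 0 to 2 genes. Why the repeats occurred within pools was not tested, and no counts were derived from them.

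The 14249 genes with more than 1 CPM in 3 or more libraries were fitted with limma 3.58.1 in R 4.3.3 (lmFit, eBayes with a trend), with fraction and pool as terms, and p-values were corrected with the Benjamini-Hochberg method. The libraries are paired by pool, since both fractions of a pool carry its name in the labels and the protocol takes both from 1 homogenate. Deviations from the fraction means correlated across genes at -0.745 to -0.495 within pools and 0.0457 to 0.441 between pools, that is, both libraries of a pool deviated in opposite directions. Whether the values were adjusted per pool before deposit is not given in the sources used here. The study's methods name sample quality weights and no pool term. The fit with array weights and no block, the closest to that design, is an alternative, as is the fit without weights or block. The scripts were tested on simulated data. CPM values are 2 to the power of the deposited log2 values. Ratios of paralogs were compared by exact permutation tests that treat the libraries as unpaired (scipy 1.17.1). Gene positions and exon lengths are from GENCODE M21 (GRCm38), and promoters from RefSeq. Pools are separate groups of mice.

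The gene set, the lists, the pairs and the tests were chosen with earlier results of these data known. Values per library were given for the paralog pairs and for the 3 called genes with the largest and the 3 with the smallest log2 fold change, with up to 4 further examples per role by level, and for the lists outside the set the 3 called genes with the largest absolute change. Syt6 and the genes named because a group was small were chosen after their values were seen. Some genes are not reported here by name, though they are part of the counts.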

Additional observations from a re-analysis of the deposited data

Results flagged for a closer look

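In 60 groups of 4 libraries (30 genes in 2 fractions), 3 held 1 library set apart from the others by Dixon's test at the 95% level, and chance alone flags about 1 in 20 groups, or 3 here. Stxbp5l in INPUT VP2.2 was low at 2.79 log2 CPM, against 3.73 to 3.82 in the other INPUT libraries. Sv2a in TRAP VP2.11 was low at 8.37 log2 CPM, against 8.64 to 8.67 in the other TRAP libraries. Syt2 in TRAP VP2.11 was low at 5.14 log2 CPM, against 5.55 to 5.62 in the other TRAP libraries.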

How the results depend on the processing

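Of 69 release genes, 32 passed with the pool as a replicate block, 40 without the block, 40 with array weights and the block, 49 with array weights and no block, and 23 with eBayes without a trend, the fewest of all settings. Genes higher in TRAP numbered 16 where a log2 change of 1 or more was also required. The share of all genes past that cut is not given here, so 16 cannot be set against it. Genes lower numbered 11 with array weights and the block, 14 with array weights and no block, and 13 with the exon length trend taken out. Among the 29 other release genes, 10 passed with eBayes without a trend, in place of 16. Leaving out 1 pool at a time gave 24 to 32 release genes called, 19 to 25 higher and 5 to 9 lower, 12 to 18 of the other release genes and 10 to 13 endocytosis genes, and 23 of the 32 genes were called whichever pool was left out. Over all genes 29.2% passed without VP2.2, and the shares without each of the other pools are not given here. No gene named here that was called changed direction under the alternatives. Of the 37 release genes not called, 19 changed sign under 1 alternative or more, and none passed there. Among those with values per library or described singly these were Cplx1 (0.0573 with array weights and the block, 0.0485 with array weights and no block, 0.145 with the length trend out, 0.0864 without VP2.2), Cplx2 (-0.0361 with the length trend out), Rims2 (0.0166 without VP2.6, 0.14 without VP2.11), Sv2c (0.21 with quantile normalization, 0.38 without VP2.6), Syngr3 (-0.0438 with quantile normalization, -0.0921 without VP1.6), Vamp1 (-0.13 with the length trend out), Syn3 (-0.18 with the length trend out) and Cplx3 (-0.0126 without VP1.6, -0.12 without VP2.6). The others were Rims3, Stx3, Stx5a, Stx7, Stx8, Stx16, Stx17, Syt9, Syt10, Syt12 and Stxbp4, whose values under the alternatives lay between -0.24 and 0.29. The shift of Syt1/Syt4 was -0.00427 without VP2.6. The causes were not tested. Of the other values for named genes and pairs, 835 kept their direction and side of the threshold, 62 lost and 38 gained a call. Neither a sign-flip test over 4 pools nor a permutation of 3 libraries against 3 can reach 0.05, so these could not pass. The unknown read depth and the rounding of 3 libraries limit how finely small changes such as that of Syt7 can be read.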
